A study of Mus musculus with 6 samples.

Results

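Gab1, Mllt6, Hivep2, Abtb2 and Ankrd33b are 5 genes whose RNA was lower in every macrophage library from infarcted hearts of mice with myeloid loss of the α5 integrin chain than in any control library. They were picked out by name from the 54532 genes of the count table, and 14522 genes, these 5 included, carried enough reads to be tested. The 5 were selected on this very contrast, for a wide gap between the groups and little spread within them, so their differences are given as a description and without p-values. The study asked how loss of integrin α5 alters infarct macrophages. It compared 3 RNA-seq libraries from ITGA5 fl/fl hearts with 3 from Myα5KO hearts, all taken from 12-week-old C57BL/6 mice 7 days after coronary occlusion. Both groups carried the floxed Itga5 alleles, and Myα5KO mice also carried LyzM-Cre, a Cre recombinase driven by the lysozyme M gene in myeloid cells. Each library was made from the cells of an individual mouse heart, from which Ly6G+ cells had been removed and CD11b+ cells then retained on magnetic columns. LyzM-Cre acts in all myeloid cells, and the sort does not separate macrophages from other CD11b+ cells.

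GAB1 is a docking protein. It is phosphorylated downstream of growth factor and cytokine receptors and then holds signalling enzymes such as the phosphatase SHP2 and phosphoinositide 3-kinase at the membrane. MLLT6, also called AF17, is a nuclear protein of the complexes built around DOT1L, the histone H3 lysine methyltransferase of transcribed genes. HIVEP2 is a large zinc finger protein that binds DNA sites resembling those of NF-κB and works with SMAD proteins downstream of bone morphogenetic proteins. ABTB2 carries ankyrin repeats and BTB domains, a domain through which many proteins bind the ubiquitin ligase scaffold CUL3. ANKRD33B is named for its ankyrin repeats, short modules that bind other proteins.

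The 5 genes lay on different chromosomes. In the GRCm38 coordinates of the count table Gab1 (ENSMUSG00000031714) spanned chromosome 8 from 80764438 to 80880519 on the minus strand. Mllt6 (ENSMUSG00000038437) spanned chromosome 11 from 97663414 to 97685463 on the plus strand. Hivep2 (ENSMUSG00000015501) spanned chromosome 10 from 13966075 to 14151374 on the plus strand. Abtb2 (ENSMUSG00000032724) spanned chromosome 2 from 103566310 to 103718423 on the plus strand. Ankrd33b (ENSMUSG00000022237) spanned chromosome 15 from 31291478 to 31367726 on the minus strand. This is the chromosome of Itga5, but 72.0 Mb separated both genes. The annotated coding transcripts had 20 exons for Mllt6, 17 for Abtb2, 10 or 11 for Gab1, 5 to 13 for Hivep2 and 2 to 4 for Ankrd33b.

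The sequence just upstream of the start site was read for each gene from RefSeq (build GRCm38.p6), to show the start sites of genes that were selected together. The 150 bases before the start are shown for the 4 genes with a window wholly outside the deposited gene, 5′ to 3′ on the strand of the gene. Capitals mark GC boxes (GGGCGG, either strand) and CCAAT boxes (CCAAT, either strand). The windows are chr8:80880520-80880669 (minus strand) for Gab1, chr11:97663262-97663411 (plus strand) for Mllt6, chr2:103566160-103566309 (plus strand) for Abtb2 and chr15:31367760-31367909 (minus strand) for Ankrd33b.
Gab1: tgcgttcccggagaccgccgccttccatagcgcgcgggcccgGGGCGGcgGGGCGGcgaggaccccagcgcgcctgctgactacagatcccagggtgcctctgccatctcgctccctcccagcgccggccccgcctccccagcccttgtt
Mllt6: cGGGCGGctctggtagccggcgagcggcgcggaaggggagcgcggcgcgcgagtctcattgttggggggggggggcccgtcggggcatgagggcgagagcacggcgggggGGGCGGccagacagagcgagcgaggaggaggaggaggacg
Abtb2: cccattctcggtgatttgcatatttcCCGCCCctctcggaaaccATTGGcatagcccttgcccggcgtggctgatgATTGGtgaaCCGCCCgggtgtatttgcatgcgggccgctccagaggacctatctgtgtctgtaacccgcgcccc
Ankrd33b: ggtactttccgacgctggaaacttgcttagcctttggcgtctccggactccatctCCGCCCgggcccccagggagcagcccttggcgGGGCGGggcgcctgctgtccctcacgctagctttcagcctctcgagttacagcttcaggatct

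All 5 genes had a GC box within 250 bases upstream of a RefSeq start, in 6 of 6 windows. Gab1 has a pair of starts, and its windows overlap and hold the same GC boxes. Such a match was found in 32.7% of 32851 mouse promoter windows of the same length, which were not matched for G and C share. The windows of the 5 genes were rich in G and C. The G and C share was 81.6% for Mllt6, 75.2% for Hivep2, 70.8% for the Gab1 window shown, 66.4% for Ankrd33b and 62.8% for Abtb2, and the median of all windows was 52.4%. A CCAAT box was present only upstream of Abtb2 among these 5 genes, against 33.8% of all windows. An NF-κB site was matched only before the RefSeq start of Hivep2 among the 5, against 7.25% of all windows. That window begins at 13966129, after the deposited gene start of 13966075. The match therefore lies inside the deposited gene, not upstream of it. None of the 6 windows held an AP-1 site (TGANTCA, 6.75% of all windows), a cyclic AMP response element (TGACGTCA, 1.55%), an E-box (CACGTG, 6.02%), an ETS site (CCGGAA, 12.0%), an antioxidant response element (TGACNNNGC, 10.2%), a TEAD site (GGAATG, 12.6%) or a CArG box (1.47%). Each motif was searched on its own on both strands, so matches of 2 motifs may overlap. A match only describes the letters of these windows.

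Library totals lay between 15424451 and 18419287 counts. Itga5, the targeted gene, fell from 607 ± 43.2 to 48.7 ± 1.48 CPM (TMM-scaled counts per library size; SD, n = 3 each). Lyz2, whose locus drives Cre, was at 53.0% of control. Of the genes tested, 5.19% were lower and 3.56% higher in Myα5KO macrophages at an adjusted p of 0.05 or less in the quasi-likelihood test of edgeR, which is 754 and 517 genes. Scaled by library totals alone, the split was 518 lower and 1212 higher, with the median log2 fold change of all genes at 0.10 in place of 0.01. In 13.8% of the genes tested all 3 Myα5KO libraries lay below all 3 ITGA5 fl/fl libraries. The 5 genes were chosen for that separation, so nothing is read from their all showing it.

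Gab1, the receptor docking protein, was expressed at 154, 139 and 155 CPM in ITGA5 fl/fl replicates 1 to 3 and at 82.3, 82.3 and 64.6 CPM in Myα5KO replicates 1 to 3. The groups did not overlap, and the lowest control library stood well above the highest Myα5KO library. The mean went from 149 ± 8.91 to 76.4 ± 10.2 CPM (SD, n = 3 each), which is 51.2% of control and a log2 difference of -0.97 (SE 0.09). Single Myα5KO libraries were at 41.7% to 59.2% of single control libraries over the 9 pairs. In the annotation 2 genes on the opposite strand overlap Gab1, the processed pseudogene Gm7997 with counts equal to 2.1% of those of Gab1 and the antisense gene Gm31105 with 0.444%. Whether counting used the strand is not given, so reads of overlapping genes cannot be told apart.

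Mllt6, of the DOT1L complexes, had the highest level per length of the 5. It reached 369, 380 and 392 CPM in ITGA5 fl/fl replicates 1 to 3 and 221, 241 and 210 CPM in Myα5KO replicates 1 to 3. The 3 libraries of each group were close together and the groups lay apart. Its mean changed from 381 ± 11.3 to 224 ± 15.5 CPM (SD, n = 3 each), or 58.8% of control, with a log2 difference of -0.77 (SE 0.07). This was the smallest difference among the 5 genes.

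Hivep2, the zinc finger protein, was measured at 199, 188 and 185 CPM in ITGA5 fl/fl replicates 1 to 3 and at 97.0, 84.7 and 68.3 CPM in Myα5KO replicates 1 to 3. Control libraries differed little, while the Myα5KO libraries were spread out below them. Means were 191 ± 7.39 and 83.3 ± 14.4 CPM (SD, n = 3 each), leaving 43.7% of control and a log2 difference of -1.19 (SE 0.10). At 13720 bases Hivep2 had the greatest deposited gene length of the 5, and at 6.03 FPKM (fragments scaled to gene length and library size) in Myα5KO its level per length was far below that of Mllt6. The long noncoding gene Gm26835 overlaps it on the other strand, with counts equal to 1.02% of those of Hivep2.

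Abtb2, the ankyrin and BTB protein, had the lowest level per length of the 5 and 302 to 854 counts a library. It had 45.5, 44.4 and 48.6 CPM in ITGA5 fl/fl replicates 1 to 3 and 19.6, 23.0 and 15.9 CPM in Myα5KO replicates 1 to 3. Here too the Myα5KO libraries lay far below the controls and varied more. The mean of 46.2 ± 2.17 CPM became 19.5 ± 3.56 CPM (SD, n = 3 each), or 42.2% of control, with a log2 difference of -1.24 (SE 0.11).

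Ankrd33b, the other ankyrin repeat gene, showed the largest difference of the 5. Its ITGA5 fl/fl replicates 1 to 3 had 199, 216 and 240 CPM and its Myα5KO replicates 1 to 3 had 93.9, 92.2 and 71.7 CPM. Its controls were the most spread of the 5 genes, and still each Myα5KO library was at 29.9% to 47.3% of each control over the 9 pairs. Its mean was 218 ± 20.8 and then 85.9 ± 12.3 CPM (SD, n = 3 each), which is 39.4% of control, a log2 difference of -1.35 (SE 0.10). The sort yields bulk RNA, so for all 5 genes fewer expressing cells and less RNA per cell cannot be told apart.

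**Figure D1:**
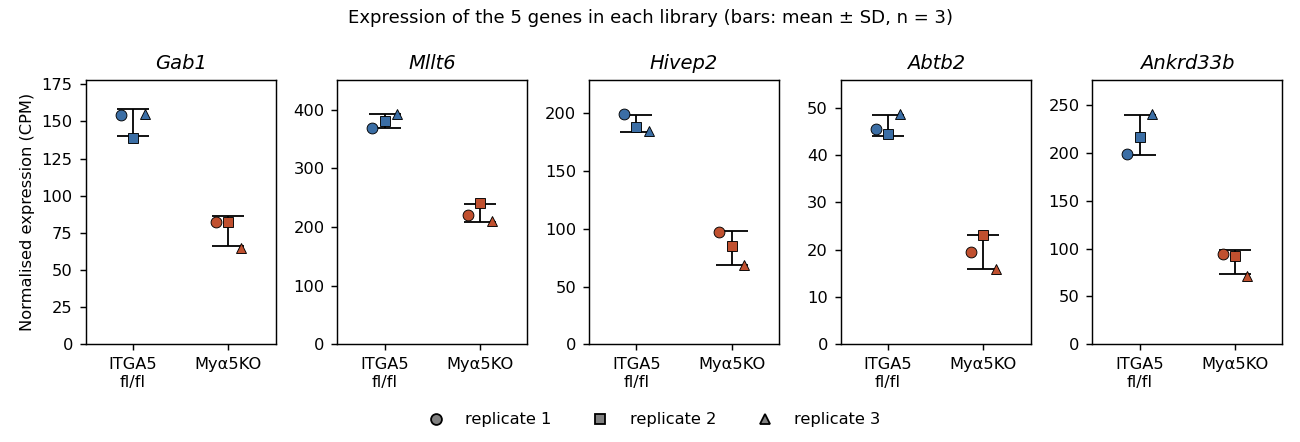
Normalised expression (y axis, CPM, each panel from 0) of the 5 genes in the 3 ITGA5 fl/fl libraries (blue) and the 3 Myα5KO libraries (red), with marker shapes for replicates and bars for mean ± SD. The groups lie apart in every panel, and Myα5KO replicate 3 (triangle) is the lowest library in each.

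Myα5KO replicate 3 had the lowest expression of all 5 genes. It was also the most divergent library of its group over genes in general. The chi-square per degree of freedom of its counts was 14.8 against replicate 1 and 9.93 against replicate 2. This value was 6.59 between Myα5KO replicates 1 and 2 and 5.61 to 7.72 between ITGA5 fl/fl libraries. ITGA5 fl/fl replicate 3 was the highest for Gab1, Mllt6, Abtb2 and Ankrd33b, and ITGA5 fl/fl replicate 1 for Hivep2. Without Myα5KO replicate 3 each log2 difference was smaller than without any other single library, at -0.72 for Mllt6, -0.86 for Gab1, -1.07 for Hivep2, -1.12 for Abtb2 and -1.23 for Ankrd33b. Over all single omissions the widest values were -0.82 for Mllt6, -1.03 for Gab1, -1.32 for Hivep2, -1.38 for Abtb2 and -1.42 for Ankrd33b.

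The 5 genes were longer than most. Their deposited lengths were 5082 bases for Gab1, 6032 for Abtb2, 7451 for Mllt6, 8761 for Ankrd33b and 13720 for Hivep2, against a median of 4071 bases over the genes tested. Of the 5492 tested genes of at least 5082 bases, 6.15% were lower and 4.24% higher. After a correction for gene length in each library, chosen after seeing the data, the log2 differences were -0.97 for Gab1, -1.27 for Abtb2, -0.78 for Mllt6, -1.35 for Ankrd33b and -1.17 for Hivep2.

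Compared per length, the 5 genes kept a clear order. In ITGA5 fl/fl libraries the deposited FPKM averaged 50.9 ± 1.52 for Mllt6, 29.3 ± 1.84 for Gab1, 24.8 ± 2.37 for Ankrd33b, 13.8 ± 0.556 for Hivep2 and 7.62 ± 0.376 for Abtb2 (SD, n = 3 each). Gab1 and Ankrd33b overlapped there, since the lowest Gab1 library had 27.1 FPKM and the highest Ankrd33b library 27.3 FPKM. In Myα5KO libraries the order was the same, with 29.8 ± 2.24, 14.9 ± 2.12, 9.74 ± 1.47, 6.03 ± 1.08 and 3.21 ± 0.607 FPKM, and no neighbours in it overlapped. By the level of the controls per length, Mllt6 stood at percentile 93.4 of tested genes and Abtb2 at percentile 66.3, so all 5 were expressed above most genes of these cells.

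The spread within groups was small for only 1 of the 5 genes. Among 9614 genes with a mean of at least 100 counts, the median SD within groups was 0.104 on the log2 CPM scale. Mllt6 had 0.0762, at percentile 27.8. Gab1 had 0.156, Ankrd33b 0.181, Hivep2 0.185 and Abtb2 0.195, between percentiles 78.0 and 88.7. The controls were the tighter group in all 5 genes. Hivep2, for example, had an SD of 0.0555 in ITGA5 fl/fl (percentile 25.3) and 0.255 in Myα5KO (percentile 94.1). For Abtb2 these were 0.0673 (percentile 33.9) and 0.268 (percentile 95.1). As a coefficient of variation in CPM, the spread of the Myα5KO libraries was 6.92% for Mllt6 and 13.4% to 18.3% for the other 4, and counting error alone gives 1.54% to 5.22%. The genes are therefore described here by name, as genes with a wide gap rather than a small spread.

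The gap between the lowest ITGA5 fl/fl and the highest Myα5KO library was 1.08 for Ankrd33b, 0.95 for Abtb2, 0.93 for Hivep2, 0.76 for Gab1 and 0.62 for Mllt6 on the log2 CPM scale. Among the 9614 genes these were ranks 2, 5, 7, 14 and 25, behind Itga5 at rank 1. Just outside the smallest of these gaps were Cxcl1, at 0.62, and Mybpc3, also at 0.62. Inside the limits that the 5 genes set for gap and spread lay 14 other genes, among them Itga5, Procr, Gfpt2, Jdp2, Nrg1, Lyz2 and Il10.

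**Figure D2:**
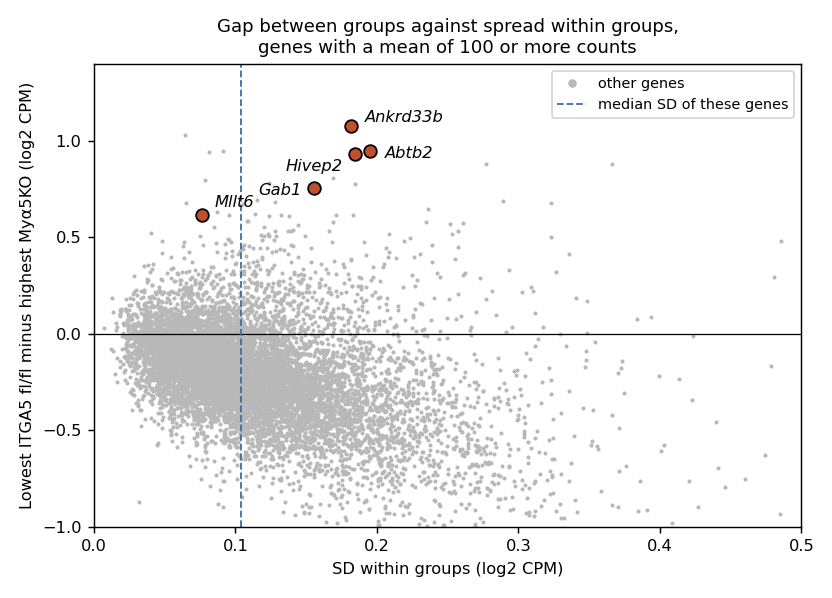
Gap between the groups (y axis, lowest ITGA5 fl/fl minus highest Myα5KO library, log2 CPM) against the SD within groups (x axis, log2 CPM) for the 9614 genes with a mean of at least 100 counts. The 5 genes (red) sit far above 0 on the y axis, Mllt6 alone to the left of the dashed median SD of 0.104, and 122 genes, Itga5 among them, lie beyond the axes.

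For each of the 5, the genes with the most similar profile over the 6 libraries were listed, using the root mean square difference of log2 CPM after centring each of 9356 genes on its own mean. Gab1 was closest to Slc22a4 (0.048), a transporter of organic cations, Phldb1 (0.065) and Srxn1 (0.071), the enzyme sulfiredoxin. Mllt6 was closest to Cd274 (0.049), which encodes PD-L1, Tnip1 (0.053), a partner of the ubiquitin editing enzyme A20, and the cytokine gene Clcf1 (0.053). Hivep2 was closest to Gfpt2 (0.12), of the hexosamine pathway, Procr (0.15) and the growth factor gene Nrg1 (0.15). Abtb2 lay nearest Nrg1 (0.094), the cystine transporter gene Slc7a11 (0.099) and Jdp2 (0.13), and Ankrd33b nearest the same 3 genes, with 0.11 for Slc7a11, 0.13 for Nrg1 and 0.17 for Jdp2. Abtb2 and Ankrd33b were also the most alike pair among the 5 (0.11), and Mllt6 and Ankrd33b the least alike (0.31). These values reflect the size of the difference between groups as well as the order of the libraries.

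Relatives of the 5 genes were then examined in the same fit, each against the background of 5.19% lower and 3.56% higher. The lists of relatives and partners were drawn up with earlier results of these data known. Their shares therefore describe these lists and are no independent test. The other genes of the Hivep family were both lower. Hivep1 had 156, 142 and 135 CPM in ITGA5 fl/fl replicates 1 to 3 and 112, 104 and 78.7 CPM in Myα5KO replicates 1 to 3, without overlap, and fell by 0.56 on the log2 scale (SE 0.11, edgeR adjusted p = 0.00599). Hivep3 had 121, 108 and 113 CPM against 81.3, 79.1 and 58.7 CPM and fell by 0.64 (SE 0.10, edgeR adjusted p = 0.00223). As for Hivep2, Myα5KO replicate 3 was the lowest library of both. In limma on the log2(FPKM + 1) and log2(FPKM + 0.1) scales Hivep1 did not pass the test, with an adjusted p of up to 0.0685, and Hivep3 did not on the latter (adjusted p = 0.0507).

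The other families gave no call. Gab2, the sister docking protein of GAB1, was at 200 ± 15.7 and 178 ± 9.12 CPM (SD, n = 3 each; log2 fold change -0.17, edgeR adjusted p = 0.177). Gab3 was at 5.28 ± 1.19 and 7.72 ± 0.173 CPM, a log2 change of 0.55 (edgeR adjusted p = 0.0551), and passed as higher in 4 of 15 alternatives, without ITGA5 fl/fl replicate 1 (adjusted p = 0.0459), with library totals (0.0272), with no count filter (0.0117) and with the length correction (0.0497). Mllt10, which encodes AF10, the relative of MLLT6, had a log2 change of -0.04 (edgeR adjusted p = 0.802) at 40.2 ± 1.04 and 39.2 ± 0.451 CPM. Abtb1 had -0.15 (adjusted p = 0.342) and Btbd11 -0.08 (adjusted p = 0.895), the BTB and ankyrin relatives of Abtb2. Ankrd33 was too low to be tested in these cells.

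Docking partners of GAB1 passed the test at a share near that of all genes. Of 17 docking partners 1 was lower (5.88%, beside 5.19% of all genes tested) and 0 higher (beside 3.56%). Their median log2 fold change was -0.04, beside 0.01 over all genes tested. Ptpn11, which encodes SHP2, had -0.03 (edgeR adjusted p = 0.805) and the adaptor gene Grb2 -0.15 (adjusted p = 0.193). The called gene was Pik3r1, a regulatory subunit of phosphoinositide 3-kinase, at 202 ± 1.95 and 168 ± 14.6 CPM (SD, n = 3 each; log2 fold change -0.27, SE 0.07, edgeR adjusted p = 0.0341). Its call was lost in 8 of 15 alternative settings, among them the omission of each library but Myα5KO replicate 1 (adjusted p = 0.0695 to 0.113). Of 13 receptors that signal through GAB1, 1 was lower and 1 higher (7.69% each). Fgfr1 was lower (log2 fold change -0.52, SE 0.13, edgeR adjusted p = 0.0225). Kdr, the receptor of vascular endothelial growth factor, was higher (0.26, SE 0.07, edgeR adjusted p = 0.0433). Fgfr1 lost its call in 5 of 15 alternatives, among them without ITGA5 fl/fl replicate 2 or 3 or Myα5KO replicate 2 (adjusted p = 0.101, 0.0628 and 0.0794). Kdr lost it in 12 of 15. These included DESeq2 (adjusted p = 0.0574) and the omission of each library in turn (edgeR adjusted p = 0.0696 to 0.182). Kdr is also in the list of endothelial markers below. Csf1r, the main growth factor receptor of macrophages, stood at 2188 ± 104 and 2153 ± 141 CPM (edgeR adjusted p = 0.894) and Met, the receptor of hepatocyte growth factor, at 6.68 ± 0.501 and 8.31 ± 0.546 CPM (adjusted p = 0.168).

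In a list wider than the DOT1L complexes of MLLT6, Dot1l and several genes of transcription elongation were lower. Of 18 genes of the DOT1L, MLL and elongation complexes, 6 were lower (33.3%) and 0 higher, with a list median log2 fold change of -0.12. Dot1l, the methyltransferase itself, fell from 715 ± 28.5 to 532 ± 33.4 CPM (SD, n = 3 each; log2 fold change -0.43, SE 0.07, edgeR adjusted p = 0.00291). Eaf1, a cofactor of the elongation factor ELL, fell from 182 ± 13.5 to 112 ± 13.4 CPM (-0.70, SE 0.09, edgeR adjusted p = 0.000394). Both passed in all 15 alternatives. The scaffold genes Aff1 and Aff4 fell by 0.44 and 0.37 and the elongation factor genes Ell and Ell2 by 0.45 and 0.44 on the log2 scale. Kmt2a, which encodes MLL, had -0.07 (edgeR adjusted p = 0.607) and Mllt3, which encodes AF9, 0.11 (adjusted p = 0.736). Mllt1 had 0.19 (edgeR adjusted p = 0.222), and Mllt10, given above, was not called. With limma on FPKM the count of lower genes was 2 of 18, Dot1l and Eaf1, and without ITGA5 fl/fl replicate 1 it was 4, Aff4 and Ell2 having lost the call (adjusted p = 0.0575 and 0.0567).

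Around HIVEP2, most of the lower genes belonged to NF-κB. Of 19 genes of bone morphogenetic protein signalling and NF-κB, 8 were lower (42.1%) and 0 higher, with a list median log2 fold change of -0.20. Nfkb1, which encodes the p50 subunit, went from 687 ± 26.5 to 427 ± 49.4 CPM (SD, n = 3 each; log2 fold change -0.69, SE 0.08, edgeR adjusted p = 0.000359). The subunit genes Nfkb2 and Relb fell by 0.39 and 0.38 on the log2 scale, and the inhibitor genes Nfkbib, Nfkbia and Tnfaip3 by 0.43, 0.32 and 0.34. Smad6, an inhibitor of bone morphogenetic protein signals, was at 13.3 ± 3.11 and 8.16 ± 0.372 CPM (-0.71, edgeR adjusted p = 0.0113), and Id2, a target of these signals, fell by 0.42. Not all NF-κB genes of the list passed. Rela, the p65 subunit gene, had -0.14 (edgeR adjusted p = 0.251) and the subunit gene Rel -0.16 (adjusted p = 0.195). The inhibitor gene Nfkbie had -0.20 (edgeR adjusted p = 0.121). Smad4 had -0.18 (edgeR adjusted p = 0.184). Id1 and Id3 had -0.04 and -0.09 and were not called (edgeR adjusted p = 0.931 and 0.694). Smad1, Smad5, Smad7, Bmpr1a and Bmpr2 were not called either, so most bone morphogenetic protein genes of the list did not pass. Nfkb1, Nfkb2, Relb and Nfkbib passed in all 15 alternatives, and with limma on log2(FPKM + 0.1) they were the 4 genes of the list that did. Without ITGA5 fl/fl replicate 3 the count was 5, as Smad6, Nfkbia and Tnfaip3 lost the call (adjusted p = 0.0537, 0.16 and 0.12). Nfkbia also lost it without ITGA5 fl/fl replicate 2 or Myα5KO replicate 1 or 2 (adjusted p = 0.125, 0.1 and 0.0581), and Tnfaip3 without ITGA5 fl/fl replicate 2 or Myα5KO replicate 1 (adjusted p = 0.0761 and 0.0715). With scaling by library totals neither passed (adjusted p = 0.0822 for Nfkbia and 0.0618 for Tnfaip3).

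Around ABTB2, the CUL3 ubiquitin ligase genes gave 1 lower and 1 higher of 19 (5.26% each), near the shares over all genes. The list median log2 fold change was -0.03. Cul3 itself had -0.03 (edgeR adjusted p = 0.840) and Rbx1, the ring subunit, -0.05 (adjusted p = 0.770). Klhl20 was higher (0.40, SE 0.10, edgeR adjusted p = 0.0303) and Klhl21 lower (-0.32, SE 0.08, edgeR adjusted p = 0.0309), both substrate adaptors. Each lost its call without any of 4 libraries, which for Klhl20 were ITGA5 fl/fl replicates 1 and 3 and Myα5KO replicates 1 and 3 (adjusted p = 0.072 to 0.133) and for Klhl21 ITGA5 fl/fl replicates 1 and 3 and Myα5KO replicates 1 and 2 (adjusted p = 0.0651 to 0.135). Over all 93 tested relatives and partners of the 5 genes, 19 were lower (20.4%) and 2 higher (2.15%).

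**Figure D3:**
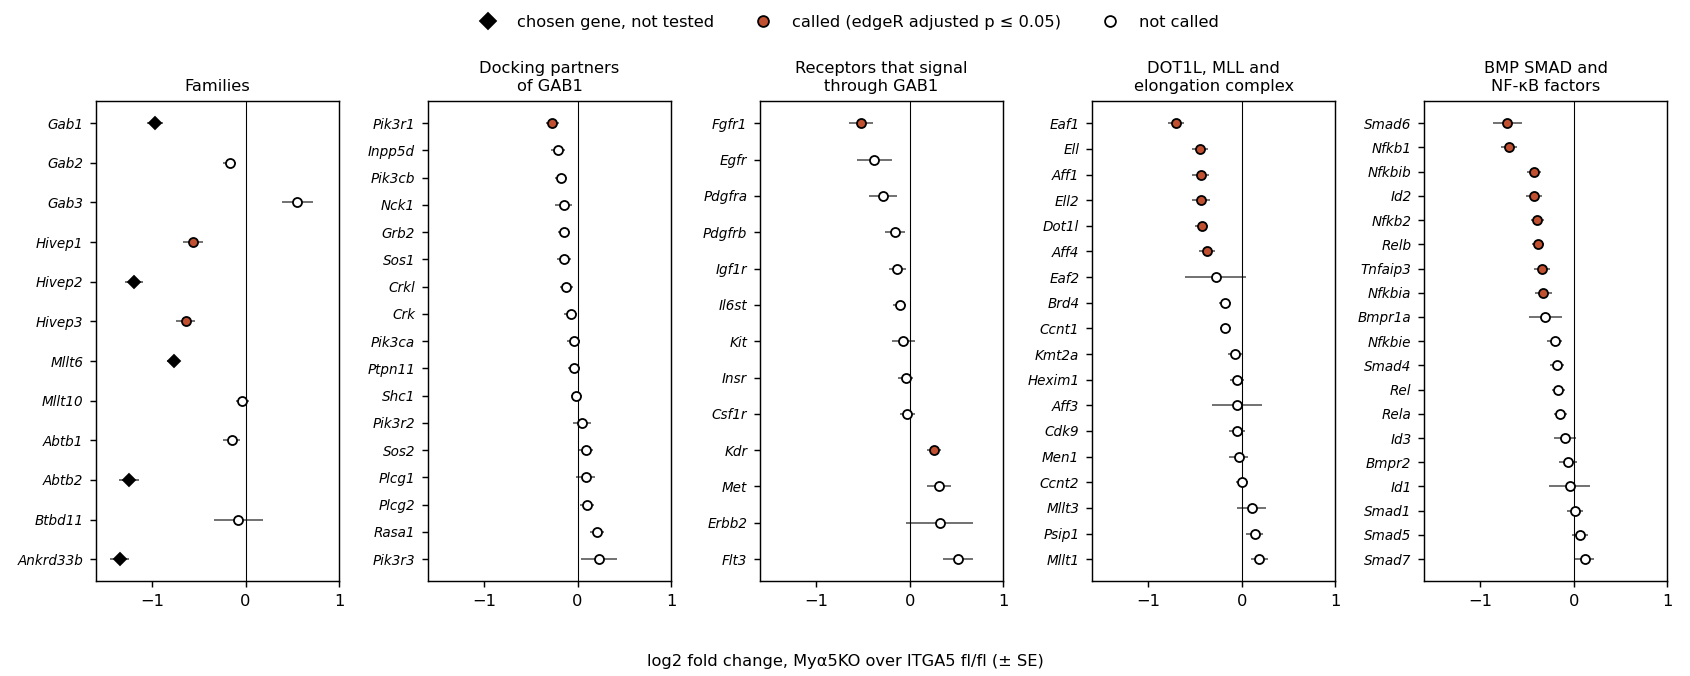
Log2 fold change (x axis, Myα5KO over ITGA5 fl/fl, ± SE) of the genes of the 5 families and of 4 partner lists, with chosen genes as diamonds, called genes as filled circles and the rest as open circles. Hivep1 and Hivep3 are called in the family of Hivep2. On the lower side, 6 of 18 DOT1L, MLL and elongation genes and 8 of 19 SMAD and NF-κB genes are filled. GAB1 docking partners lie around 0.

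Genes next to the 5 on the chromosome gave no call. For each of the 5 the nearest tested protein-coding gene on either side was taken, 10 genes in all. None was called in edgeR, beside 5.19% lower and 3.56% higher of all genes tested, or in DESeq2. At such shares 10 genes may well give no call, so nothing is read from this count. In edgeR 0 of 10 had an unadjusted p under 0.05. Their log2 fold changes ran from -0.48 to 0.10. Cisd3, 363 bases from Mllt6, had 10.4 ± 1.68 and 8.56 ± 0.781 CPM (SD, n = 3 each; -0.29, edgeR adjusted p = 0.237). Nat10, 2833 bases from Abtb2, had 16.3 ± 1.25 and 17.4 ± 0.579 CPM (0.10, adjusted p = 0.599). Ropn1l, with -0.48 (SE 0.27, adjusted p = 0.313), was barely expressed at 2.55 ± 0.655 CPM in controls.

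**Figure D4:**
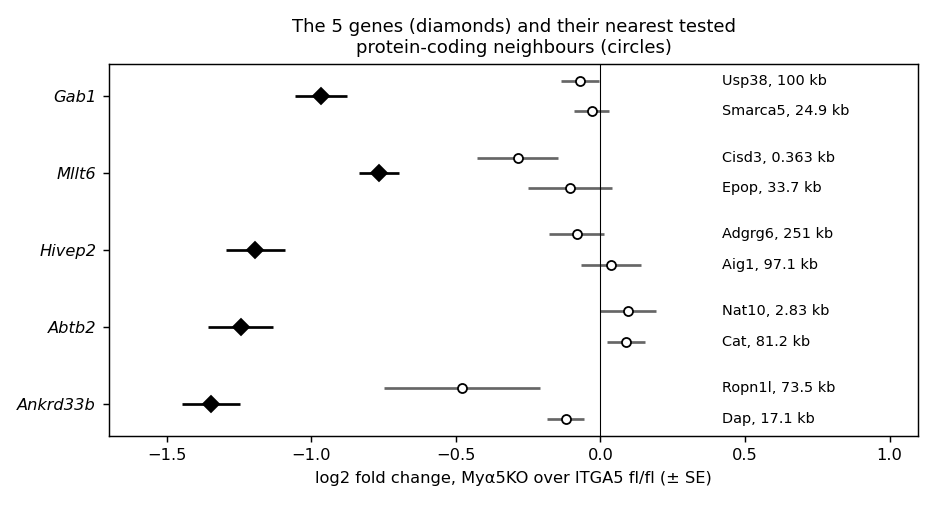
Log2 fold change (x axis, Myα5KO over ITGA5 fl/fl, ± SE) of the 5 genes (diamonds) and of their nearest tested protein-coding neighbours (circles, with the distance in kb). The neighbours lie between -0.48 and 0.10, and the 5 genes between -1.35 and -0.77.

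Markers of several cell types also differed between the groups. The summed CPM of the 10 macrophage markers was 19701 to 20499 in ITGA5 fl/fl and 15857 to 16631 in Myα5KO libraries, with Lyz2 lower, Fcgr1 higher and the other 8 not called. Lyz2, the Cre locus, carried 88.6% of the difference between the mean sums, and the other 9 markers summed to 12628 to 12868 and 11892 to 12561 CPM, a mean of 96.5% of control. Fibroblast markers summed to 4769 to 6045 and 3137 to 4384 CPM, with 2 of 10 lower, Postn and Fn1. Fn1 carried 77.9% of that difference, and the other 9 markers summed to 2004 to 2323 and 1544 to 1943 CPM, a mean of 82.0% of control. Myα5KO replicate 3, the lowest library for all 5 genes, also had the lowest fibroblast sum, with or without Fn1. Cardiomyocyte markers summed to 24.0 to 26.0 and 15.4 to 19.5 CPM, with 3 of 9 tested lower. Markers of monocytes (1407 to 1561 and 1873 to 2142 CPM, 5 of 10 higher), granulocytes (80.1 to 115 and 164 to 264 CPM, 5 of 8 tested higher), B cells (119 to 164 and 165 to 255 CPM, 2 of 8 higher) and T and NK cells (24.4 to 26.8 and 29.3 to 30.3 CPM, 0 of 5 tested called) were summed higher in Myα5KO. Nr4a1 carried 68.3% of the difference in the monocyte sum, and the other 9 markers summed to 419 to 505 and 620 to 626 CPM. Cd4 made up most of the T and NK cell sum, at means of 19.3 and 20.9 CPM within sums of 25.4 and 29.8 CPM. Cd3d, Cd3e, Cd3g, Cd8a and Trac were too low to be tested. Mmp9, not called, held 52.6 of a mean granulocyte sum of 101 CPM in ITGA5 fl/fl and 69.0 of 203 CPM in Myα5KO. The called granulocyte markers were S100a8, S100a9, Camp, Ngp and Ltf, while Retnlg, not called, was at 64.4% of control. Myα5KO replicate 3 had the highest granulocyte sum, and the highest monocyte sum with Nr4a1 but not without it. Ly6g, the antigen used for depletion, was at 0 in 3 libraries and at most 0.107 CPM in the others. In these 7 lists the groups did not overlap and the exact two-sided permutation p was 0.1, the smallest that 3 against 3 libraries allow. Endothelial (exact permutation p = 0.5) and dendritic cell (exact permutation p = 0.4) sums overlapped, with 1 of 10 and 2 of 10 markers higher. The endothelial marker was Kdr, counted above among the receptors as well. No marker was at 0 in all 6 libraries. The part of these shifts in the differences of the 5 genes was not tested.

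**Figure D5:**
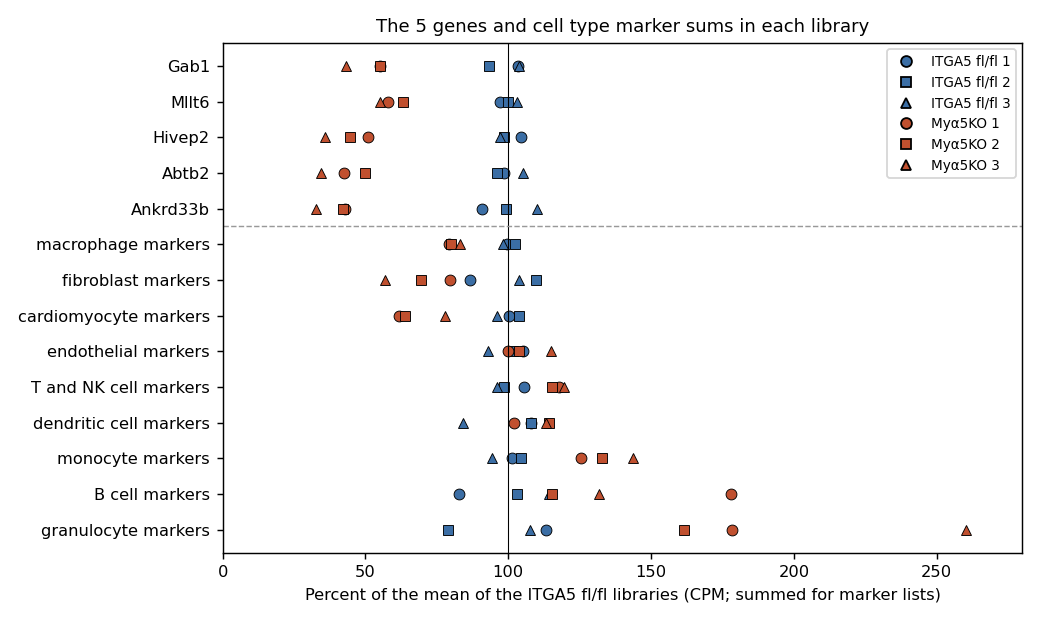
CPM of the 5 genes and summed CPM of 9 cell type marker lists in each library, as a percent of the mean of the ITGA5 fl/fl libraries (x axis), with blue for ITGA5 fl/fl and red for Myα5KO and shapes for replicates. The 5 genes lie at 32.9% to 63.2% in Myα5KO libraries, fibroblast sums at 56.9% to 79.5% (72.4% to 91.1% without Fn1) and granulocyte sums at 162% to 260.2%.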

How the data were processed

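RNA of Ly6G- CD11b+ cells of 6 infarcted mouse hearts was sequenced by the authors as paired-end reads of 150 bases. Per the labels, the reads were processed with TopHat2 2.0.9, HTSeq 0.6.1 and Cufflinks 2.1.1 on GRCm38.p6. The deposited counts are whole reads per gene, not normalized. The handling of strand and of reads with several matches is not given in the sources used here. The authors also deposited FPKM values, which equal the count divided by the deposited gene length (another column, 1 value a gene) and by a library constant that scales with the size factor DESeq2 computes. Groups and replicate numbers came from the sample titles. The methods of the study state that hearts of individual mice were used, which the labels do not, so p-values measure the spread between these libraries.

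Genes were tested with edgeR 4.0.16 in R 4.3.3 (quasi-likelihood, TMM, default expression filter with minimum count 10 and minimum total 15, two-sided, Benjamini-Hochberg adjustment over 14522 genes). Each SE is the absolute log2 difference divided by the square root of the F statistic of this test. It therefore carries the same information as that test. CPM were computed with the TMM factors. Marker sums were compared by exact permutation. Alternatives were DESeq2 1.42.0, limma 3.58.1 on log2(FPKM + 1) and log2(FPKM + 0.1) where 3 or more libraries reached an FPKM of 1, median-ratio scaling, library totals, omission of the filter, a minimum of 10 counts per library, a block for the replicate number, omission of each library, and a correction for gene length that was chosen after seeing the data. The 5 genes and all lists were chosen with earlier results of these data known. The genes named are the 5, Itga5, Lyz2, their family members, the called and up to 3 further genes of each partner list, their neighbours and, for each, the 3 nearest profiles among genes with a mean of at least 100 counts. Other genes named for their gap, as markers or among the bone morphogenetic protein and NF-κB genes were chosen after their values were seen. Promoter sequences were from RefSeq (GRCm38.p6), with entries for all 5 genes. In a test on simulated data for this comparison (14522 genes), edgeR recovered 97% of 100 genes changed by at least 2-fold and 49% of 100 with smaller changes, and 16 of 162 calls were false. Counts are of amplified reads without molecular identifiers, so precision from depth covers counting error only.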

Additional observations from a re-analysis of the deposited data

How the results depend on the processing

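The 5 genes kept a lower level in Myα5KO under all 15 alternatives run. Their log2 differences moved by more than the spread between replicates only for Mllt6 with scaling by library totals (-0.69) and for Abtb2 on log2(FPKM + 1) (-1.04), a scale that understates changes of low genes. The calls among other genes depended more on the setting. Over all genes, 1271 were changed in the reported fit (754 lower, 517 higher). Library totals gave 1212 higher and 518 lower, as the median log2 fold change of all genes was then 0.10 instead of 0.01, and no count filter gave 798 higher. Limma on log2(FPKM + 1) called 472 (322 lower, 150 higher) and on log2(FPKM + 0.1) 448 (306 lower, 142 higher). Without single libraries the counts ran from 616 to 1091 changed, 429 to 671 lower and 187 to 420 higher, the lowest without ITGA5 fl/fl replicate 3. DESeq2 gave 1228 (792 lower, 436 higher) and the length correction 1538 (907 lower, 631 higher).

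Of the 93 relatives and partners, 21 were changed in the reported fit, 19 lower and 2 higher. Limma on log2(FPKM + 1) gave 8 changed, 8 lower and 0 higher, and on log2(FPKM + 0.1) 6 changed, 6 lower and 0 higher. The count of higher genes was 1 with median-ratio scaling, 6 with library totals, 4 with no count filter and 1 with at least 10 counts in every library. Without single libraries 13 to 18 were changed and 0 to 2 higher. The cause of these shifts was not tested. The 10 neighbouring genes gave 0 calls in every alternative, too few genes to read this against the share over all genes.

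Replicate numbers gave no clear sign of pairing. Deviations of each library from its group mean in log2 CPM correlated at 0.0762, -0.12 and 0.0213 between same-numbered libraries. Between libraries with different numbers these correlations ran from -0.166 to 0.170. With 3 libraries a group the deviations depend on each other, so the correlations cannot exclude a pairing. With the replicate block 1181 genes were changed (717 lower, 464 higher), and of the relatives and partners 19 were lower and 0 higher.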
